A study of Homo sapiens with 4 samples.

Results

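Interferon-stimulated genes, the antiviral programme that cells switch on through interferon receptors, were followed in breast cancer cells labelled control shRNA or ELK3 shRNA. The second group is called ELK3 knockdown (KD) by its label only, and markers given below went against that label in part. The set held 36 listed genes, taken with every probe set whose annotation named exactly 1 of them: 34 genes had such probe sets, 80 in all, among 18132 genes and 49395 probe sets on the arrays, and STAT2 and USP18 were not analysed here. The rule used gene names and no measured value. The study profiled total RNA on 4 arrays to learn what changes when ELK3, an ETS-family transcription factor best known as a repressor, is suppressed. All cells were labelled MDA-MB-231, a human triple-negative breast cancer line from a pleural effusion, grown in serum-containing DMEM. Both groups carried a stably integrated shRNA, a control shRNA (RHS4080) in 2 arrays and an shRNA against ELK3 (RHS4531-EG2004) in 2 arrays, and the study's methods describe retroviral delivery for both, starting from a line marked with GFP and luciferase. The arrays of a group are called biological repeats, but although the methods describe several stable lines for each shRNA, neither source says which lines the arrays hold or whether repeats come from separate ones. The p-values thus cover nothing beyond the spread among these 4 arrays, which may be technical. No arm held a second ELK3 shRNA or cells given back ELK3, and the action of the shRNA and any other difference between the cell populations cannot be told apart.

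Interferons bind receptors at the cell surface, whose attached kinases JAK1 and TYK2 phosphorylate STAT proteins. STAT proteins together with IRF9 then enter the nucleus and bind the interferon-stimulated response element (ISRE) in promoters of antiviral genes, whereas IRF1 and IRF7 can drive many of the same genes with less need for secreted interferon. The products block viral entry, translation and RNA stability, tag proteins with ISG15, or reshape the proteasome for antigen presentation, and many tumour lines keep part of this programme on without added interferon. The labels name no added interferon, so the values below are read as resting levels.

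ELK3 itself had log2 intensities of 10.85 and 10.82 with the control shRNA. With the ELK3 shRNA it had 8.34 and 8.33 and fell by 2.50 on the log2 scale (standard error 0.07, adjusted p = 3.57e-05 by limma). Array medians lay between 6.23 and 6.27. The label of the cells was checked against markers of the line, and the ELK3 KD arrays went against it in part. All 7 measured markers of MDA-MB-231 were lower there, against 23.5% of all genes. NT5E fell by 8.24, AXL fell by 7.74, KRT7 fell by 6.33 and CD44 fell by 3.44 on the log2 scale. CAV1, MSN and VIM fell by 3.01, 1.16 and 1.02 and stayed bright, with ELK3 KD means of 9.33, 9.69 and 12.49. CD44 kept a mean of 7.67 there. Of the 9p21 genes, from a region known to be deleted in the MDA-MB-231 line, CDKN2A, CDKN2B and KLHL9 lay below the background guide described below in the control arrays at their brightest probe sets and were bright in the arrays labelled ELK3 shRNA: CDKN2A rose by 6.53, KLHL9 by 6.61 and CDKN2B by 3.94. A second probe set of CDKN2A had a control mean of 6.10, above the guide. The brightest probe set of MTAP read 6.78 and 6.84 in control cells, also above it, and fell by 0.45, while its other 5 rose by 2.98 to 4.55. Of 7 genes of HEK293, a human embryonic kidney line, 5 rose (71.4%, against 26.0% of all genes). Among them were NEFL by 7.58, SOX11 by 5.81, DPYSL3 by 3.63 and CKB by 2.64. The other genes of that list, PAX2 and NEFM, did not pass and had both means below the guide. These marker lists were chosen with earlier results of these data known. Of 9 leukocyte markers 1 fell (11.1%, against 23.5% of all genes), 0 rose (against 26.0%) and 6 had both means below that guide. The 2 brightest, CD8A and NKG7, had control means of 6.48 and 6.14, and CD8A fell by 0.58, while PTPRC, the marker of all leukocytes, was at or below 2.80 in all 4 arrays. These identity genes moved with the same 2 arrays as every result below. Their part in the results was not tested, no comparison without those 2 arrays could be made, and in bulk RNA fewer cells of a type and less RNA per cell cannot be told apart. Directions below are therefore those of the libraries labelled ELK3 shRNA, and ELK3 KD cells is their name by label only.

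More interferon-stimulated genes were lower than higher in the arrays labelled ELK3 shRNA, and the largest falls were deep. By limma with Benjamini-Hochberg adjustment over all genes at 0.05, 19 of 34 fell (55.9%) against 23.5% of all 18132 genes, and 6 of 34 rose (17.6%) against 26.0% of all genes. For 9 genes the difference did not pass. Falls of more than 4-fold were found for 6 members, PSMB8, IFIT2, IFIT3, IFI44, PSMB9 and IFI27, against a background of 2.32%, and a rise of more than 4-fold for 1, BST2, against 3.19%. The median log2 fold change of the members was -0.51, with a range of -5.16 to 3.13, and that of all genes was -0.05. The groups did not overlap for 32 of 34 members, where 76.2% of all genes had no overlap. With so few arrays, the smallest p that exact two-sided permutation of the labels allows is 0.33.

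The values carry no detection calls, so background was judged from 359 probe sets of olfactory receptor genes, whose median log2 intensity was 3.88 and whose 95th percentile was 5.71. For 14 members at least 1 group mean lay below that percentile, which limits the size of their differences, and for 8 both did. The plots of single values and of fold changes set all 34 genes side by side.

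**Figure D1:**
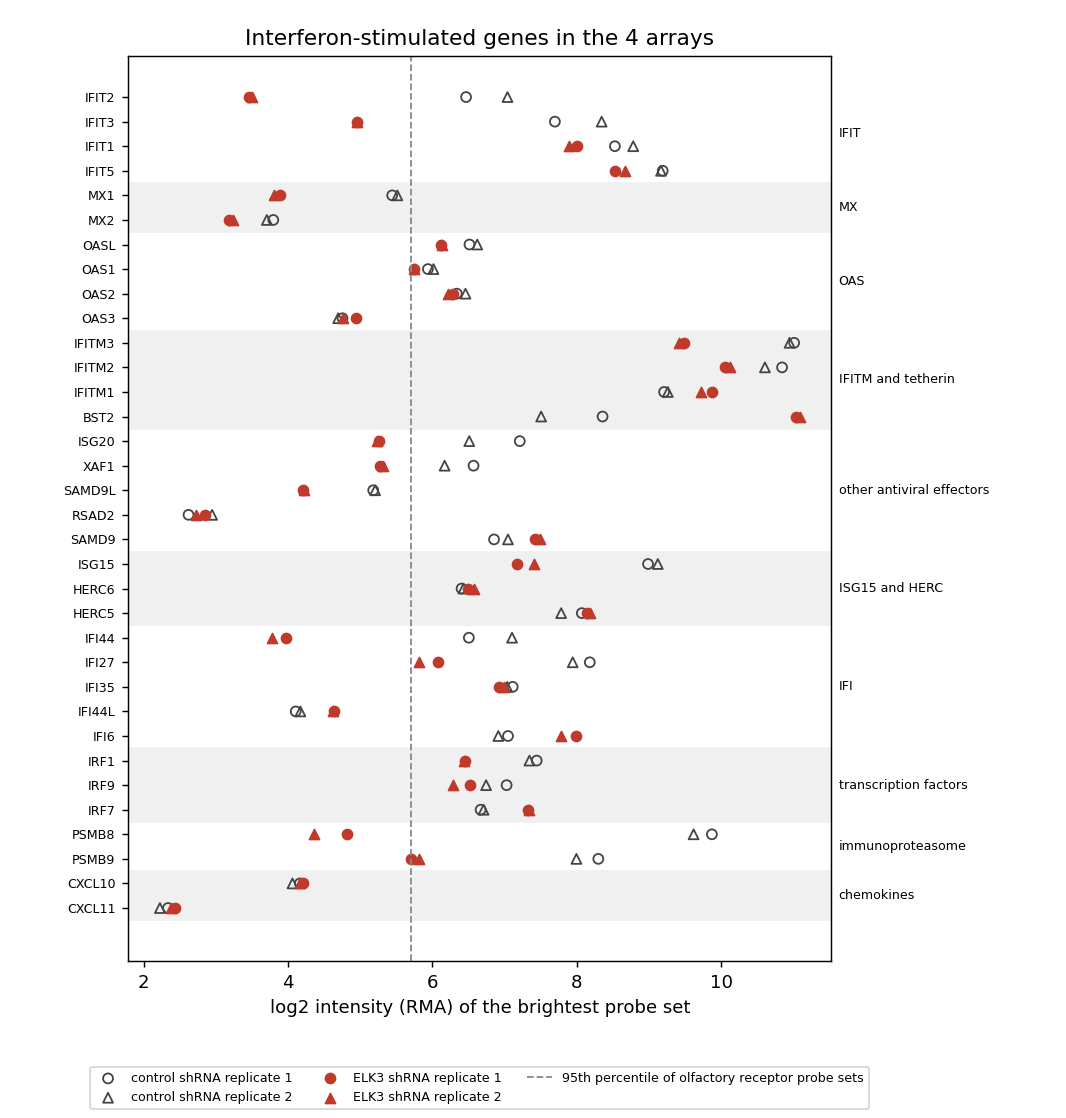
Log2 intensity (RMA, horizontal axis) of each of the 34 interferon-stimulated genes in the 4 arrays, read from its brightest probe set and grouped by role; open symbols are control shRNA, filled symbols ELK3 shRNA, circles replicate 1 and triangles replicate 2, and the dashed line is the background guide (5.71, 95th percentile of the olfactory receptor genes). PSMB8, IFIT2, IFIT3 and IFI44 lay above the line in both control arrays and below it in both ELK3 shRNA arrays, while BST2 moved the other way, to 11.04 and 11.09.

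**Figure D2:**
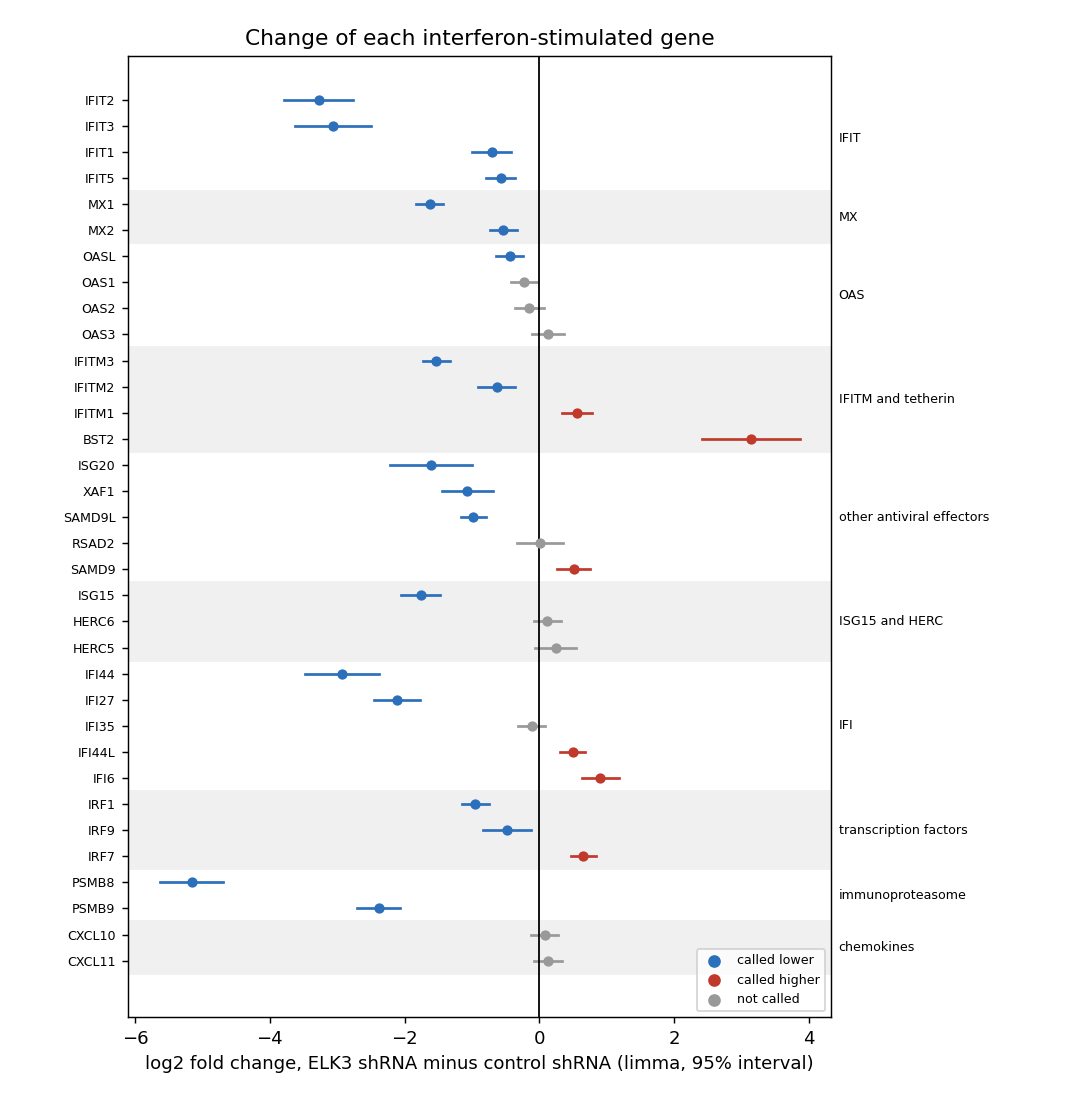
Log2 fold change (ELK3 shRNA minus control shRNA, horizontal axis) of the 34 genes with 95% confidence intervals from limma, grouped by role. The 19 genes that fell and the 6 that rose are coloured apart from the 9 that did not pass adjusted p 0.05, and they run from PSMB8 at -5.16 to BST2 at 3.13.

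The IFIT proteins bind viral RNA and hold back its translation. All 4 measured genes of this family were lower at their brightest probe sets, where 23.5% of all genes were. Their median log2 fold change was -1.88. IFIT2 read 6.47 and 7.04 in control cells and 3.45 and 3.50 in ELK3 KD cells, a difference of -3.28 (standard error 0.20, adjusted p = 0.000238). IFIT3, the partner that stabilises IFIT1, read 7.70 and 8.34 against 4.96 and 4.96, a difference of -3.06 (standard error 0.22, adjusted p = 0.000392). Both genes were bright in the control arrays and at background level in both ELK3 KD arrays, with no overlap. IFIT1, which recognises RNA lacking a host cap, read 8.53 and 8.78 against 8.00 and 7.90, a difference of -0.71 (standard error 0.11, adjusted p = 0.00526). IFIT5 read 9.19 and 9.17 against 8.54 and 8.67, a difference of -0.58 (standard error 0.08, adjusted p = 0.00363). These 2 stayed well above background in every array, so 2 genes of the family dropped to background level and 2 fell by less than 2-fold. The probe set of IFIT3 has a name ending in _x_at, which the maker gives to probes that can match other transcripts. A second probe set of IFIT5, also above background, differed by -0.19 and did not pass (adjusted p = 0.187).

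Of the other genes that act on viral nucleic acid or capsids, the MX genes fell, and of the OAS genes only OASL passed the test at its brightest probe set. MX1, a dynamin-like GTPase that traps viral components, read 5.44 and 5.51 in control cells and 3.89 and 3.81 in ELK3 KD cells, a difference of -1.63 (standard error 0.08, adjusted p = 0.000132). MX2, known for restricting HIV, read 3.80 and 3.71 against 3.19 and 3.24, a difference of -0.54 (standard error 0.08, adjusted p = 0.00378). Both passed the test although both group means of each gene lay below the background guide, which limits the size of these differences. OASL, an OAS-like protein without the synthetase activity, read 6.51 and 6.62 against 6.12 and 6.13 and fell by 0.44 (standard error 0.08, adjusted p = 0.00767). OAS1, OAS2 and OAS3 make the short 2'-5' adenylate chains that activate the nuclease RNase L. OAS1 read 5.94 and 6.02 against 5.75 and 5.75, a difference of -0.23 (95% interval -0.42 to -0.04, adjusted p = 0.0543). OAS2 differed by -0.15 (-0.36 to 0.06) and OAS3 by 0.13 (-0.11 to 0.37). None of these 3 passed. The groups did not overlap for any of them, which was also so for 76.2% of all genes. The call depended on the processing for a pair of them: OAS2 was called lower under the mean of its probe sets (-0.77, adjusted p = 0.00115), and OAS1 after repeated quantile normalization (adjusted p = 0.0337) or median centring (adjusted p = 0.0331).

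Proteins that act at membranes went in both directions. BST2, or tetherin, which holds budding virus at the cell surface, read 8.36 and 7.51 in control cells and 11.04 and 11.09 in ELK3 KD cells, a rise of 3.13 (standard error 0.28, 95% interval 2.41 to 3.86, adjusted p = 0.000792), or 8.77-fold. It had the widest gap between control arrays of all members, 0.85, and the nearest arrays of the groups still lay far apart. IFITM3, which blocks fusion of virus in endosomes, read 11.01 and 10.95 against 9.48 and 9.42, a difference of -1.53 (standard error 0.08, adjusted p = 0.000145). IFITM2, its close relative, read 10.84 and 10.61 against 10.06 and 10.12, a difference of -0.64 (standard error 0.10, adjusted p = 0.00604). IFITM1, the family member found mostly at the plasma membrane, read 9.21 and 9.26 against 9.87 and 9.72, a rise of 0.56 (standard error 0.09, adjusted p = 0.00495). All IFITM genes remained bright in every array. The probe sets read for the 3 IFITM genes carry names ending in _x_at, and since their coding sequences are closely alike, signal can be shared among them.

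ISG15, the ubiquitin-like protein that is joined to newly made proteins, read 8.99 and 9.12 in control cells and 7.17 and 7.41 in ELK3 KD cells, a difference of -1.76 (standard error 0.11, adjusted p = 0.000289). It was lower in both ELK3 KD arrays than in either control array. HERC5, the main human ligase for ISG15, read 8.07 and 7.78 against 8.15 and 8.18, a difference of 0.24 (95% interval -0.06 to 0.54, adjusted p = 0.151), and HERC6, which conjugates ISG15 in mice, differed by 0.12 (-0.08 to 0.31, adjusted p = 0.263). Neither HERC gene passed the test. Without control replicate 1, HERC5 was called higher (0.38, adjusted p = 0.0302).

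The other antiviral effectors were mostly lower. ISG20, an exonuclease that degrades single-stranded RNA, read 7.21 and 6.51 against 5.26 and 5.24, a difference of -1.61 (standard error 0.23, adjusted p = 0.00396). XAF1, a pro-apoptotic antagonist of XIAP, read 6.57 and 6.17 against 5.28 and 5.31, a difference of -1.07 (standard error 0.15, adjusted p = 0.00316). In both genes the ELK3 KD arrays lay closer together than the control arrays and below the background guide. SAMD9L, a growth-restraining antiviral protein, read 5.18 and 5.21 against 4.21 and 4.22, a difference of -0.98 (standard error 0.07, adjusted p = 0.000405), with both means below the guide. Its paralog SAMD9 read 6.85 and 7.05 against 7.43 and 7.49, a rise of 0.51 (standard error 0.10, adjusted p = 0.00977). RSAD2, or viperin, an enzyme that makes a chain-terminating nucleotide, stayed at background in all 4 arrays, from 2.62 to 2.95, with overlapping groups.

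The genes with the IFI prefix have functions that are less well worked out. Among them 2 fell (40.0%, against 23.5% of all genes), 2 rose (40.0%, against 26.0%) and 1 did not pass. IFI44 read 6.51 and 7.10 in control cells and 3.97 and 3.78 in ELK3 KD cells, a difference of -2.93 (standard error 0.21, adjusted p = 0.000411). IFI27, a mitochondrial membrane protein, read 8.18 and 7.94 against 6.07 and 5.82, a difference of -2.11 (standard error 0.13, adjusted p = 0.000263). Neither gene had a control array near an ELK3 KD array. IFI6, which protects cells from apoptosis and flavivirus replication, read 7.05 and 6.91 against 7.99 and 7.78, a rise of 0.90 (standard error 0.11, adjusted p = 0.00194). IFI44L read 4.11 and 4.17 against 4.64 and 4.62, a rise of 0.49 (standard error 0.07, adjusted p = 0.00438), with all 4 values below the guide. IFI35, a protein with a leucine zipper-like region, differed by -0.12 (95% interval -0.32 to 0.08, adjusted p = 0.267).

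Of the 3 transcription factors of the set, 2 fell (66.7%, against 23.5% of all genes) and 1 rose (33.3%, against 26.0%). The call of IRF9 was the least firm at its brightest probe set. IRF1, an activator of resting and interferon-gamma-driven antiviral genes, read 7.45 and 7.34 in control cells and 6.45 and 6.43 in ELK3 KD cells, a difference of -0.95 (standard error 0.08, adjusted p = 0.000586). IRF9, the DNA-binding partner of the STAT proteins at the ISRE, read 7.03 and 6.74 against 6.52 and 6.28, a difference of -0.48 (standard error 0.14, adjusted p = 0.0376). The name of this probe set ends in _x_at. With _x_at and _s_at probe sets dropped, IRF9 was read from another one and differed by -0.98 (adjusted p = 0.000604 by limma). IRF7, the amplifier of interferon-alpha production, read 6.67 and 6.71 against 7.33 and 7.34, a rise of 0.65 (standard error 0.07, adjusted p = 0.00155). IRF7 and IRF1 showed tight replicates and wide gaps between groups, whereas the gap between IRF9 groups was smaller than that between its replicates in either group. Its call was lost without control replicate 1 (adjusted p = 0.146), ELK3 KD replicate 1 (0.0766) or ELK3 KD replicate 2 (0.195) and by the methods' t-test (0.208).

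Both immunoproteasome subunits fell, PSMB8 by more than any other member. PSMB8 and PSMB9 replace constitutive catalytic subunits of the proteasome, which alters the peptides offered on MHC class I. PSMB8 read 9.87 and 9.62 in control cells and 4.82 and 4.36 in ELK3 KD cells, a difference of -5.16 (standard error 0.18, 95% interval -5.63 to -4.69, adjusted p = 6.02e-05), or 35.7-fold. PSMB9 read 8.30 and 8.00 against 5.71 and 5.82, a difference of -2.38 (standard error 0.12, adjusted p = 0.000168). PSMB8 thus went from a bright gene to background level in both ELK3 KD arrays, so background limits its fold, and PSMB9 ended just at the guide. The chemokines CXCL10 and CXCL11, which draw T cells through CXCR3, were at background in every array: CXCL10 ran from 4.06 to 4.21 with overlapping groups and CXCL11 from 2.23 to 2.44.

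Most of these genes lie beside a relative, and neighbours did not always change alike. In the order of protein-coding genes, IFI44L and IFI44 are adjacent on chromosome 1 and went in opposite directions (0.49 and -2.93), as did SAMD9 and SAMD9L on chromosome 7 (0.51 and -0.98). IFITM2, IFITM1 and IFITM3 follow each other on chromosome 11, and the middle gene rose (-0.64, 0.56 and -1.53). The IFIT cluster on chromosome 10, the MX pair on chromosome 21 and the pair PSMB8 and PSMB9 on chromosome 6 each fell together. The neighbours OAS1, OAS3 and OAS2 on chromosome 12, and CXCL10 with CXCL11 and HERC6 with HERC5 on chromosome 4, held no gene called at its brightest probe set with all arrays, with the exceptions under other settings given above for OAS1, OAS2 and HERC5.

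To show what the promoters of such neighbours share, the 170 bases before the start of transcription are printed for IFI44 and IFI44L and for IFITM3 and IFITM1, which are adjacent pairs with opposite changes, and for ISG15 and BST2, which fell and rose strongly. They come from RefSeq on GRCh38.p14, read 5' to 3' on the strand of the gene. Capitals mark the core of the ISRE, GAAANNGAAA on either strand, where overlapping matches run together.
IFI44 (fell; chr1:78649619-78649788, + strand): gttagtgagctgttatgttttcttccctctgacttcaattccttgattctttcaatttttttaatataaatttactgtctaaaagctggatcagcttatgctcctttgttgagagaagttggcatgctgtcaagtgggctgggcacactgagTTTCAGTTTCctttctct
IFI44L (rose; chr1:78620278-78620447, + strand): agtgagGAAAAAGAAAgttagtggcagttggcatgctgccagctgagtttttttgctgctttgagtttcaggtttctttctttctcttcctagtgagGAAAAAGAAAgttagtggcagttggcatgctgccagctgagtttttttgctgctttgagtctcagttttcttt
IFITM3 (fell; chr11:320861-321030, - strand): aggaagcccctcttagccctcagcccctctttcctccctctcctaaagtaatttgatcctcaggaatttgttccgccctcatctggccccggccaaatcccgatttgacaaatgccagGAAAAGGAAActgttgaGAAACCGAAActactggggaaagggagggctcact
IFITM1 (rose; chr11:313870-314039, + strand): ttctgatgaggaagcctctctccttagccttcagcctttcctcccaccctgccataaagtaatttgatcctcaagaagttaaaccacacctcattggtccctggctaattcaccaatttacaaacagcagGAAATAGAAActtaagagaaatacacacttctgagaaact
ISG15 (fell; chr1:1013327-1013496, + strand): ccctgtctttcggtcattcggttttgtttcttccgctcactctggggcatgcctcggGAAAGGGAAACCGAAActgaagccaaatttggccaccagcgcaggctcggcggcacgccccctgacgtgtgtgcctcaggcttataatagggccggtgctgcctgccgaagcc
BST2 (rose; chr19:17405631-17405800, - strand): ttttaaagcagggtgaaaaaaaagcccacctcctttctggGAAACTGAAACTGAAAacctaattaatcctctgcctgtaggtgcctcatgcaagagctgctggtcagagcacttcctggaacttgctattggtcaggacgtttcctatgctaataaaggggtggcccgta
All 6 windows held the core, IFI44L, IFITM3, ISG15 and BST2 with 2 matches each and the others with 1. Over the 250 bases before the start, 16 of the 29 listed genes found in the table held it (55.2%), against 3.02% of 35116 promoters. Listed genes were taken with 1 promoter each, while the 35116 are all promoter entries without that step, here and for the motifs below. By direction, among genes with a promoter sequence there, it was present in 8 of 15 that fell (53.3%). It was present in 5 of 5 that rose and in 3 of 8 that were not called (37.5%), while STAT2, which was not measured, held none. No promoter sequence was found for IRF7, which rose, or for IFIT2, MX2, OASL and IFITM2, which fell. PSMB8, PSMB9, MX1, XAF1, SAMD9L, IRF1 and IRF9, the other 7 of the 15 that fell, had no match in this window. The motif TTCNNNGAA, the core of the site that STAT dimers bind, was found in 8 of 29 (27.6%) against 6.57% of all promoters, in 3 of 15 that fell and in 2 of 5 that rose. CCGGAAGT, an ETS-type site on either strand, was found in 0 of 29 against 3.42%. With a share this low and 29 promoters, that count does not set the listed genes apart. Other forms of ETS site were not searched. The letters describe these windows and do not show that a factor was bound.

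Different probe sets of a gene did not always give the same size. Counted singly, 43 of 80 probe sets fell against 24.3% of the 44988 that name 1 gene, and 9 rose against 24.6%. For 35 of the 80 both group means lay below the background guide. XAF1, IRF9 and PSMB9 were lower in all their probe sets, 7, 4 and 3 of them. In XAF1 the differences ran from -3.38 to -0.99, so the brightest probe set, at -1.07, gave nearly the smallest. PSMB8 fell by 6.52 in a second bright probe set, from 9.72 and 9.53 to 3.09 and 3.11, and another one, dim throughout, did not pass. BST2 rose by 3.13 to 3.44 in 3 of 4, the other being near 2.5 in every array. OAS2 was split. Its brightest probe set was not called, but 3 of its 5 fell, the largest from 5.07 and 5.59 to 3.51 and 3.05, a difference of -2.05 (adjusted p = 0.00161). IFI44L was called higher in 1 of its 3, and IRF1 lower in 2 of 4. No member had probe sets called in opposite directions.

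**Figure D3:**
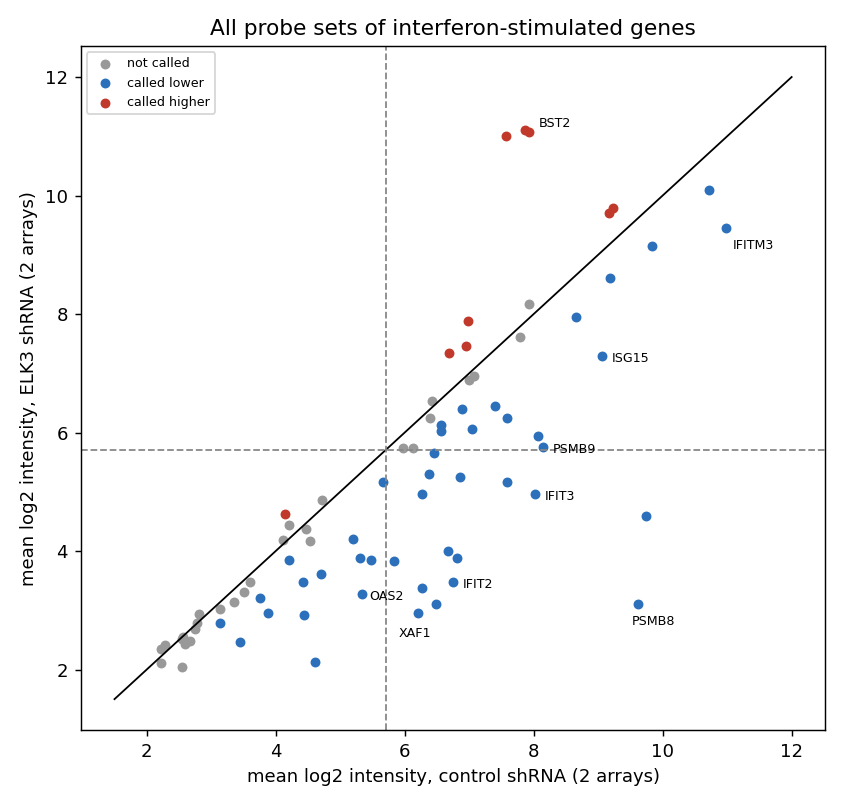
Mean log2 intensity in ELK3 shRNA arrays (vertical axis) against that in control arrays (horizontal axis) for the 80 probe sets of the interferon-stimulated genes, coloured by call, with the line of equal values and the background guide (5.71) dashed. The 43 that fell lie under the line of equal values, PSMB8 farthest from it, and the 3 bright probe sets of BST2 stand above it at 11.01 to 11.11.

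The rest of the interferon pathway was read from lists by role. Of 17 measured interferon genes, all had both means below the background guide and 16 did not pass. Only 1 fell (5.88%, against 23.5% of all genes) and 0 rose (against 26.0%). That 1 gene was IFNW1, which fell by 0.41 (adjusted p = 0.0197), and the brightest, IFNA14 and IFNL1, differed by 0.02 and 0.07. Of 9 receptor chains and kinases, 2 rose and 2 fell, 22.2% each way and near the shares of all genes (26.0% and 23.5%). IFNLR1, the receptor chain for lambda interferons, read 6.10 and 5.76 against 8.28 and 8.18 and rose by 2.30 (standard error 0.13, adjusted p = 0.000215). TYK2, a kinase on the receptor for type I interferon, read 8.79 and 8.73 against 7.79 and 7.82 and fell by 0.95 (standard error 0.07, adjusted p = 0.000505). Of the same list, IFNGR1, which binds interferon-gamma, rose by 0.59 and JAK1 fell by 0.27. Of 5 inhibitors of signalling, 3 fell and 1 rose, where 23.5% of all genes fell and 26.0% rose. With only 5 genes, this count was not tested and gives no result for inhibitors as a group. SOCS3 fell by 0.74, PTPN2 by 0.36 and PIAS1 by 0.30, while the phosphatase PTPN6 rose by 0.74. Among 5 other IRF genes, IRF2, often a repressor at the same promoter sites, read 7.70 and 7.72 against 6.34 and 6.16 and fell by 1.46 (standard error 0.09, adjusted p = 0.000267), and the remaining 4 did not pass, IRF3 at -0.06 and IRF5 at -0.18 among them.

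A further 43 genes that interferon is known to induce gave 24 falls (55.8%, against 23.5% of all genes) and 4 rises (9.30%, against 26.0%), with a median of -0.38. Guanylate-binding proteins, GTPases that attack intracellular pathogens and answer mainly to interferon-gamma, led the falls. GBP3 read 7.53 and 7.67 against 3.26 and 3.13 and fell by 4.40 (standard error 0.09, adjusted p = 2.3e-05), GBP2 fell by 4.26 and GBP1 by 3.90. DDX60L, a helicase-like antiviral factor, fell by 3.71. All 4 were bright in control cells and at background in ELK3 KD cells. EPSTI1 and LAMP3, picked out after their values were seen, rose by 2.13 and 2.02. A second probe set of LAMP3 differed by 0.24 and did not pass. The counts rest on brightest probe sets, and others could differ in both directions. CMPK2, not called at its brightest, rose by 3.45 in another and did not pass in a further one. APOL1, also not called at its brightest, fell by 1.78 in another. The plot by list sets these genes beside the members.

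**Figure D4:**
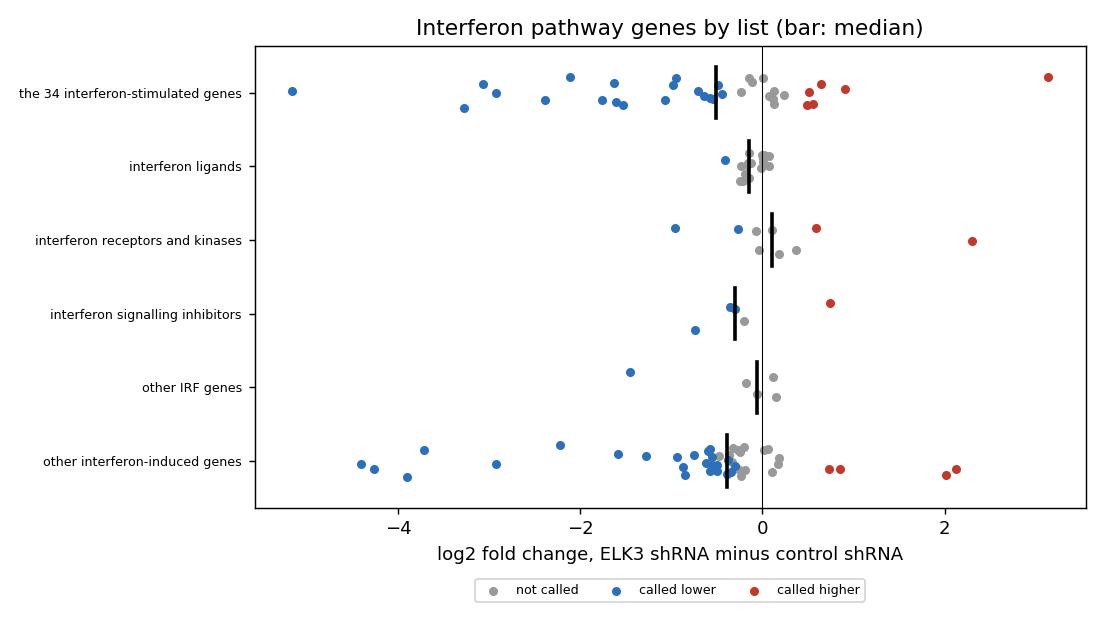
Log2 fold change (ELK3 shRNA minus control shRNA, horizontal axis) of every measured gene in the 34-gene set and 5 other interferon lists; each point is a gene, coloured by call, and the bar is the median of the list. Ligand genes stayed within -0.41 to 0.07, whereas members and other interferon-induced genes reached -5.16 and -4.40, with medians of -0.51 and -0.38.

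Replicates of the members lay closer in ELK3 KD cells than in control cells, with a median gap between arrays of 0.06 against 0.13, and over all genes the gaps were 0.08 and 0.12. Gaps above 0.5 were found for 5 members in control cells and for 0 in ELK3 KD cells. Control replicate 2 was the higher array for IFIT2, IFIT3 and IFI44 and the lower one for BST2 and ISG20. Some calls were lost with 1 array fewer. Without ELK3 KD replicate 1, the calls of OASL, IRF9, IFITM2, SAMD9 and IFI44L were lost (adjusted p = 0.0504 to 0.0766), and without ELK3 KD replicate 2 those of IFIT1, OASL, IRF9 and SAMD9 (0.0553 to 0.195). Most of these fold changes stayed close to their values with all arrays: without ELK3 KD replicate 1, OASL was at -0.44, IFITM2 at -0.61, SAMD9 at 0.54 and IFI44L at 0.48, whereas IRF9 ranged from -0.63 to -0.34 over the 4 arrays left out. By the methods' t-test 10 calls were lost, BST2 (adjusted p = 0.0594) and ISG20 among them. Under every setting that measured them, 13 of the 19 falls kept their call, and of the 6 rises only that of IRF7 did.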

How the data were processed

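Per the submitters' processing notes, the authors deposited log2 values made by RMA in Expression Console of Affymetrix, whose version is not given in the sources used here: background correction, quantile normalization and 1 summary value for each probe set. Labelling followed an Affymetrix 3' IVT protocol by the labels and the probe set names are Affymetrix ones, although the study's methods give an Illumina array. Low values are compressed by RMA, which makes differences of dim genes too small, and a change in total RNA per cell is hidden by quantile normalization. Scanner files were not used here.

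Of 49395 probe sets, 44988 named 1 gene, 1832 several, 2473 none and 102 were controls. Symbols were updated by gene identifier for 44961. Each gene was read from its brightest single-gene probe set, with no filter on dim genes. For the comparison of 2 arrays with 2, limma 3.58.1 was run in R 4.3.3 (lmFit and eBayes, two-sided, no block) with Benjamini-Hochberg adjustment over 18132 genes, or over 44988 probe sets where probe sets were counted, at 0.05. The fit was tested on simulated data. The columns used were 4. Precision is limited by the number of arrays. Replicate arrays correlated at 0.995 and 0.998 across probe sets and were not identical.

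All 36 listed genes, ELK3 and the 9p21 genes were named, and of every other list at most 4 called genes with the largest change and no overlap, or, with fewer than 2 called, the 2 brightest. PTPRC, EPSTI1, LAMP3, CMPK2 and APOL1 fall outside this rule and were named after their values were seen. VIM, CAV1, MSN, PAX2, NEFM, IFNW1 and IRF2 were also named outside the rule. The members, lists and tests were chosen with earlier results of these data known. Alternatives were the mean of probe sets, 2 filters, repeated quantile normalization, median centring, an intensity trend, the methods' t-test, a replicate block and each array left out. Promoters came from RefSeq on GRCh38.p14 (250 bases before the start). Plots were made in Python 3.11.15 with matplotlib 3.10.9.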

Additional observations from a re-analysis of the deposited data

How the results depend on the processing

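The main counts were 19 members lower and 6 higher, and 43 and 9 of their probe sets. Dropping probe sets named _x_at or _s_at left 28 members with a median of -0.29. Among genes above the median level, 9 of 16 members were lower and 5 higher, where 3018 and 3422 of all 9066 such genes were. Among probe sets above the median level, 18 of 32 were lower and 8 higher, and the share over all such probe sets was not counted. The methods' t-test after adjustment called 13 members lower and 2 higher, and 18 and 2 probe sets, and over all genes 2086 lower and 2574 higher against 4256 and 4715. With 1 array left out, members lower ran from 16 to 19, members higher from 4 to 7 and probe sets higher from 5 to 10. Over all genes the lower and higher counts were 2430 and 3080 without ELK3 KD replicate 1, and 2493 and 3171 without ELK3 KD replicate 2. The lone array of a group was then assumed to vary like the other group.

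The replicate block gave 19 lower and 6 higher members. Deviations of same-numbered arrays correlated at 0.011 across genes, so they showed no large shared shift. Whether same-numbered arrays were handled together is not said by the labels, and this value cannot tell. OAS1 passed after repeated quantile normalization (adjusted p = 0.0337) and median centring (0.0331), where all genes had medians of -0.06 and -0.09. No member reversed its direction with a call in any setting. Background signal limits 14 members with a mean below the guide.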
